A study of Mus musculus with 6 samples.

Results

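The genes described here are 10 genes of the collecting duct and the ureteric trunk, chosen by name: the channels and receptor of principal cells (Aqp2, Aqp3, Avpr2, Scnn1a, Scnn1b and Scnn1g), the calcium-binding protein Calb1, and the transcription factors Gata3, Elf5 and Foxi1. They are 10 of 26394 genes and unnamed transcripts tested, out of 32515 on the array. Every one of the 10 was well above background on all 6 arrays. Transcripts were measured on one-colour Agilent mouse arrays of whole kidneys at E14.5 from a hybrid of the 129 and C57BL/6 strains, comparing Sall1 knockouts with controls. Sall1 encodes a zinc finger transcription factor of nephron progenitors.

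In the Six2Cre line, Cre under Six2 directed the deletion of floxed Sall1 to nephron progenitors; its 2 controls are replicates 5 and 2 and its 2 knockouts replicates 7 and 9. In the CreER line, an inducible deletion of floxed Sall1, there was 1 control array (replicate 2, titled wt/flox) and 1 knockout array (replicate 5, titled CreER/flox), with tamoxifen at E12.5 and an interval of 48 hours. The treatment text mentions tamoxifen for the samples in general, so whether Six2Cre mice received it is not settled. Since the title of the CreER control names no CreER, an effect of carrying CreER and an effect of losing Sall1 cannot be told apart in that pair. The line of each sample was read from the style of its title, and the labels do not say whether Six2Cre controls carried Cre, how many kidneys made up a sample or whether arrays came from separate embryos. The p-values therefore measure only the spread between these samples.

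The collecting duct arises from the ureteric bud, an epithelium separate from the Six2-expressing progenitors that form nephrons. Its principal cells take up water through aquaporins under the control of vasopressin and take up sodium through the epithelial sodium channel ENaC. Its intercalated cells secrete acid or base and depend on the forkhead factor Foxi1. The kidney at this age is still branching, and the genes of mature duct cells are read at an early stage of the trunk.

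Each value below is the log2 signal of a probe relative to the 75th percentile of its own array, so a value of one gene is not set against that of another. The 6 arrays used 0.25 ug of RNA each, and between 72.1% (CreER knockout 5) and 83.2% (Six2Cre knockout 9) of their spots were well above background. The standard deviation of the negative controls was 4.01 signal units on CreER knockout 5 and 1.46 to 1.61 on the others. Slide 1 carried Six2Cre control 5 and Six2Cre knockout 7 and slide 2 carried the rest, so each slide held a knockout and a control of the same line. Sall1 itself, the targeted gene, read -1.41 and -0.80 in the Six2Cre controls, -2.68 and -2.03 in the Six2Cre knockouts, -1.31 in the CreER control and -4.09 in the CreER knockout. All 3 knockouts lay below all 3 controls, as labelled. The Six2Cre difference of -1.25 (SE 0.38) had an adjusted p of 0.601 in the limma fit. The labels do not say which part of Sall1 was floxed, so where its probe lies relative to the deleted part is not known here.

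The 250 bases before the annotated start are shown for Foxi1, the gene with the largest difference, for Scnn1b and Scnn1g, which lie near each other on chromosome 7 and had similar Six2Cre differences, and for Aqp2, the water channel that defines principal cells. They are read along the gene's strand from RefSeq on build GRCm38.p6, which held windows for 8 of the 10 genes. Foxi1 is on the minus strand at chr11:34208090-34208339, Scnn1b on the plus strand at chr7:121864788-121865037, Scnn1g on the plus strand at chr7:121734229-121734478 and Aqp2 on the plus strand at chr15:99578806-99579055. Capitals mark matches to the letters searched for this report.
Foxi1: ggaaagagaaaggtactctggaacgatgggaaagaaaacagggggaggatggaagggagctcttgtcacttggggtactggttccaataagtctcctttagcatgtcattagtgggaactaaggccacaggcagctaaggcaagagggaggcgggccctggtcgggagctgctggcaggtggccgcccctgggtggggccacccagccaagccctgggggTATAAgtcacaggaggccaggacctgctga
Scnn1b: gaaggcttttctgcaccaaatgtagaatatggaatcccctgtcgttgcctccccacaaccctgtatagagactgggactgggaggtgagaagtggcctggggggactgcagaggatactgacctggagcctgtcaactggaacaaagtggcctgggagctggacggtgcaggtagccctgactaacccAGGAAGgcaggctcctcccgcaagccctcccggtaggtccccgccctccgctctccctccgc
Scnn1g: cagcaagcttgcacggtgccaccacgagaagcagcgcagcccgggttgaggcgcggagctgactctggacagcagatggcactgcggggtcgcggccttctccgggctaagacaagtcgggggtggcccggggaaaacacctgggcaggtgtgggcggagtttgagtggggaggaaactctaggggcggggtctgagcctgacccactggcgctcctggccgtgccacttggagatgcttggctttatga
Aqp2: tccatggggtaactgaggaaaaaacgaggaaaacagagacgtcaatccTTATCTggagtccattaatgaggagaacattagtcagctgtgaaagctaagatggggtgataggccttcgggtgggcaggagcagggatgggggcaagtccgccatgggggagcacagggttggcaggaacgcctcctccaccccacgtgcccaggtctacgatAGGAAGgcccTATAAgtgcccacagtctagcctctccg
The letters searched on both strands were AGATAA for GATA factors, TGTTTA for forkhead factors and AGGAAG for ETS factors, the families of Gata3, Foxi1 and Elf5. TATAA was searched on the gene's strand between 40 and 20 bases before the start. Foxi1 held TATAA 30 to 26 bases before its start, and Scnn1b held AGGAAG 62 to 57 bases before its start. Scnn1g held no match. Aqp2 held the reverse of AGATAA at 202 to 197, AGGAAG at 38 to 33 and TATAA at 28 to 24 bases before its start, with no overlap between them. Among the 8 genes with a window, AGATAA was found in 1, TGTTTA in 1 (Avpr2), AGGAAG in 2 and TATAA in 3 (Aqp2, Aqp3 and Foxi1). Of 32544 promoters, 9.97%, 12.0%, 29.6% and 3.51% held these letters in the same windows. A match describes the letters and shows no binding.

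The first question was whether deletion of Sall1 in nephron progenitors was accompanied by other transcript levels of these duct genes. In the Six2Cre kidneys, 2 of the 3 ENaC subunits, Calb1 and Elf5 read higher in both knockouts, by 1.54-fold to 1.66-fold in the mean, Foxi1 read 3.01-fold lower, and the vasopressin receptor and aquaporins had no steady direction. One of the 10, Foxi1, was at least 2-fold apart, against 6.11% of all features. None of the differences passed an adjusted p of 0.05 in limma, where 0 of the 10 genes and 0% of all 26394 features were called. At an unadjusted p under 0.05 there were 2 of the 10 (Foxi1 and Scnn1g), against 6.33% of all features. The knockout arrays did not overlap the controls for 4 of the 10 on the higher side (Scnn1b, Scnn1g, Calb1 and Elf5), against 17.5% of all features. Read within slides, 4 of the 10 were higher in both pairs, against 34.6% of all features, 3 were lower in both, against 24.5%, and 3 had opposite signs. On the lower side the arrays did not overlap for 2 of the 10 (Foxi1 and Scnn1a), against 12.6% of all features. Over the 10 genes the median difference was 0.28 with 6 higher and 4 lower, while all features had a median of 0.03 with 53.8% higher. These are whole kidneys, so fewer cells of a type and less RNA per cell cannot be told apart.

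**Figure D1:**
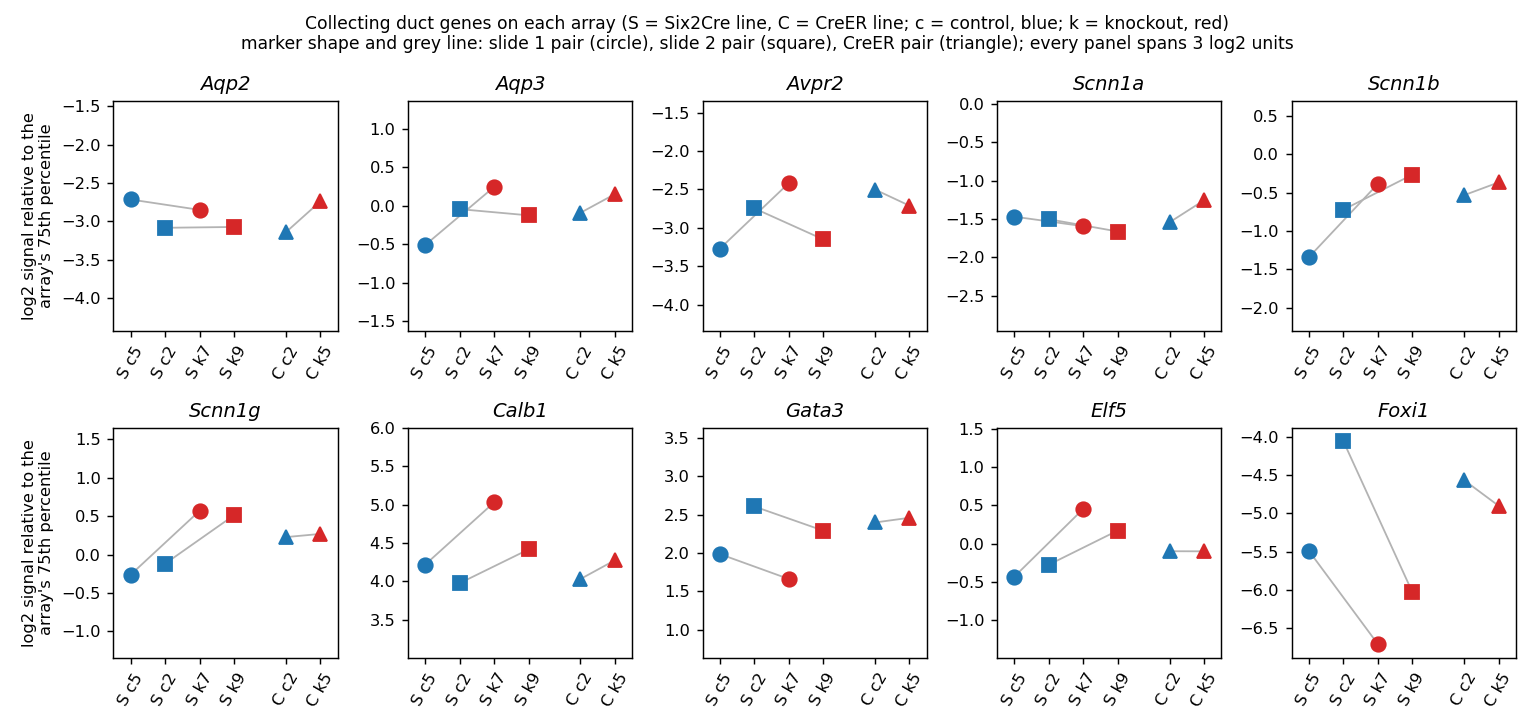
Log2 signal relative to the array's 75th percentile (vertical axis) of the 10 genes on each of the 6 arrays, one panel per gene with its own axis of equal span and one point per array; grey lines join a knockout and a control of the same line and slide. Scnn1b, Scnn1g and Calb1 lie higher on all 3 knockout arrays than on all 3 control arrays, and Foxi1 lies lowest on the 2 Six2Cre knockouts.

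The water channels and the vasopressin receptor overlapped between the groups. Aqp2, the vasopressin-regulated channel of the apical membrane, read -2.72 and -3.08 in the Six2Cre controls and -2.85 and -3.07 in the knockouts. The 2 groups overlapped, and the difference was -0.06 (SE 0.28). In the CreER pair Aqp2 read -3.14 in the control and -2.74 in the knockout, a difference of 0.40 without a replicate. Over all 6 arrays Aqp2 spanned only 0.43 log2 units, the control range from -3.14 to -2.72 holding every knockout value.

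Aqp3, the channel through which water leaves the cell on the basolateral side, read -0.51 and -0.04 in the Six2Cre controls and 0.25 and -0.12 in the knockouts. The groups overlapped, because the slide 1 pair differed by 0.76 and the slide 2 pair by -0.08. Its Six2Cre difference was 0.34 (SE 0.31), and the CreER pair read -0.09 in the control and 0.15 in the knockout. Without Six2Cre control 5 the Aqp3 difference was 0.11, without knockout 7 it was 0.15, without control 2 it was 0.57 and without knockout 9 it was 0.52. Avpr2, the vasopressin V2 receptor that acts through cyclic AMP on Aqp2, was split in the same way by slide. It read -3.27 and -2.75 in the Six2Cre controls and -2.42 and -3.15 in the knockouts, with pair differences of 0.85 on slide 1 and -0.40 on slide 2. The CreER control read -2.50 and the knockout -2.71. The Six2Cre difference of 0.23 (SE 0.38) for Avpr2 therefore joined pairs of opposite sign, and it ran from -0.14 (without knockout 7) to 0.59 (without knockout 9) when single arrays were left out.

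ENaC is built from an alpha, a beta and a gamma subunit, encoded by Scnn1a, Scnn1b and Scnn1g. Scnn1b read -1.34 and -0.72 in the Six2Cre controls and -0.38 and -0.26 in the knockouts. Both knockouts lay above both controls, by 0.96 on slide 1 and 0.46 on slide 2, and the mean difference was 0.71 (SE 0.31), or 1.63-fold, with an adjusted p of 0.916 in limma. The CreER pair read -0.53 and -0.37, the knockout again the higher. Without Six2Cre control 5, the lowest of the controls, the Six2Cre difference of Scnn1b was 0.40.

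Scnn1g read -0.26 and -0.12 in the Six2Cre controls and 0.57 and 0.51 in the knockouts. Here the arrays within each group lay close together, and the difference was 0.73 (SE 0.24), or 1.66-fold. Its unadjusted p was 0.0320 and its adjusted p 0.678 in limma, the smallest adjusted p of the 10 genes in this comparison. The CreER pair read 0.23 and 0.27, a difference of 0.04. The CreER difference minus the Six2Cre difference was -0.69 (SE 0.42) for Scnn1g, and for none of the 10 genes did this test between the lines pass (limma, 0% of all features called). At an unadjusted p under 0.05 it gave 0 of the 10, against 2.35% of all features.

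Scnn1a, the subunit needed for a working channel, was the one of the 3 that did not share this direction. It read -1.47 and -1.50 in the Six2Cre controls and -1.59 and -1.66 in the knockouts. The knockouts lay just below the controls without overlap, by -0.14 (SE 0.24). The CreER pair went the other way, from -1.54 to -1.26. A second Scnn1a probe was not well above background on any array and was not used. The 3 subunits thus had Six2Cre differences of -0.14, 0.71 and 0.73; the difference between subunits was not tested.

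Calb1 encodes calbindin-D28k, a calcium buffer of the ureteric epithelium in the embryo and of the connecting tubule later. It read 4.22 and 3.98 in the Six2Cre controls and 5.03 and 4.42 in the knockouts. Both knockouts lay above both controls, Six2Cre knockout 7 furthest, and the difference was 0.63 (SE 0.32), or 1.54-fold, with an adjusted p of 0.998 in limma. The CreER pair read 4.03 in the control and 4.28 in the knockout. Without Six2Cre knockout 7 the Calb1 difference was 0.32.

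The Calb1 probe was printed 10 times on each array, which shows the error of the spots apart from that of the samples. Between 8 and 10 spots per array were free of outlier marks. Their standard deviation was 0.06 log2 units on each of the slide 1 arrays and between 0.0076 and 0.027 on the slide 2 arrays. The pair differences of 0.81, 0.44 and 0.25 were thus each larger than the spread between spots of a single array. That spread holds no variation between kidneys.

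**Figure D2:**
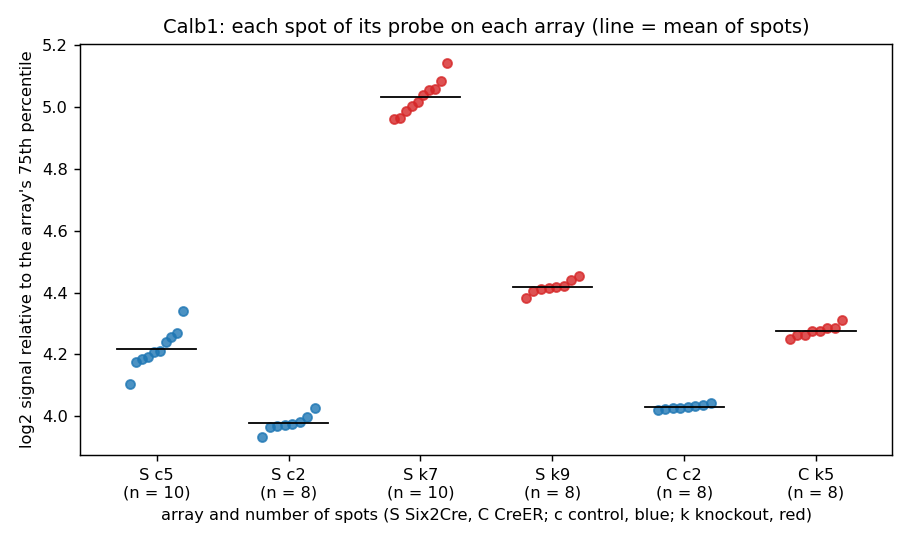
Log2 signal relative to the array's 75th percentile (vertical axis) of each unmarked spot of the Calb1 probe on the 6 arrays, one point per spot and a line at the mean. Spots of an array lie within a narrow band, and the band of each knockout lies above the band of the control of its line on the same slide.

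Of the transcription factors, Gata3, which the ureteric bud and the trunk need to form, overlapped between groups. It read 1.98 and 2.60 in the Six2Cre controls and 1.66 and 2.29 in the knockouts. The slide 1 pair differed by -0.32 and the slide 2 pair by -0.31, while slide 2 read higher than slide 1 in both genotypes. The Six2Cre difference of Gata3 was -0.32 (SE 0.37). It was -0.0048 without Six2Cre knockout 7, -0.0098 without control 2, and -0.63 without control 5 or without knockout 9, and the CreER pair read 2.40 and 2.46.

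Elf5, an ETS factor of the trunk and of maturing principal cells, read -0.43 and -0.27 in the Six2Cre controls and 0.45 and 0.17 in the knockouts. The groups did not overlap. The difference was 0.66 (SE 0.26), or 1.58-fold, with an adjusted p of 0.812 in limma. In the CreER pair Elf5 read -0.10 on both arrays, and the sign of this difference turned under quantile and median scaling.

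Foxi1, the factor that specifies intercalated cells, read -5.49 and -4.06 in the Six2Cre controls and -6.70 and -6.03 in the knockouts. The knockouts lay below the controls without overlap, but the controls themselves were 1.43 log2 units apart. The difference was -1.59 (SE 0.57), with an unadjusted p of 0.0411 and an adjusted p of 0.750 in limma. The CreER control read -4.57 and the knockout -4.90, so Foxi1 was lower in the knockout of all 3 pairs, by -1.21, -1.97 and -0.33. It is a dim probe, with a processed signal between 20.1 and 117 units. With another background correction (normexp) the Six2Cre difference was -0.68, and without Six2Cre control 2 it was -0.88. The normexp values include an offset of 50 units, which by arithmetic shrinks the differences of a probe this dim.

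**Figure D3:**
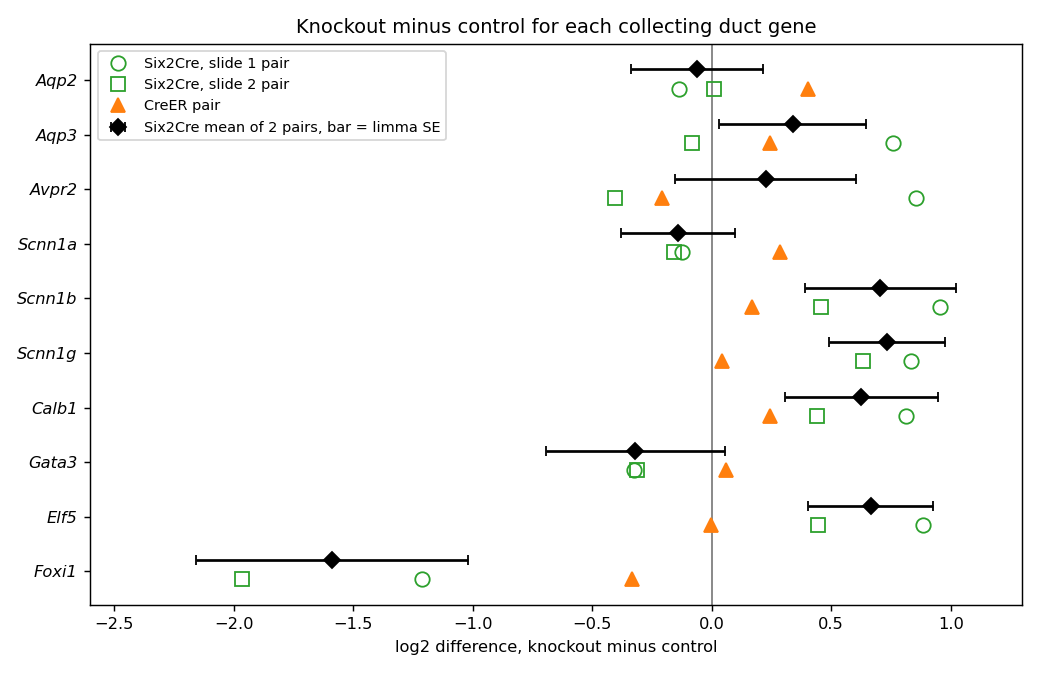
Knockout minus control in log2 units (horizontal axis) for each of the 10 genes (rows) in the slide 1 Six2Cre pair (open circle), the slide 2 Six2Cre pair (open square) and the CreER pair (triangle), with the Six2Cre mean and its limma SE as a black diamond and bar. Foxi1 lies left of 0 in all 3 pairs, and Scnn1b, Scnn1g and Calb1 lie right of 0 in all 3.

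The pairs differed in size. The slide 1 pair had the larger absolute difference for 8 of the 10 genes, with a median of 0.78 over the 10, against -0.04 in the slide 2 pair. Over all features these medians were 0.02 and 0.07. The share of all features with the larger absolute difference on slide 1 was not computed. In the Feature Extraction error model, which covers the scan of a spot and not the spread between embryos, the error of a pair difference was 0.20 to 0.25 log2 units. The difference exceeded 2 such errors for 7 of the 10 genes in the slide 1 pair, 5 in the slide 2 pair and 0 in the CreER pair, against 30.7%, 26.3% and 7.84% of all features. With slide as a block in the limma fit, Foxi1 had an adjusted p of 0.201, Scnn1g 0.311, Scnn1b 0.391, Elf5 0.399 and Calb1 0.405, and 0% of all features were called. At an unadjusted p under 0.05 that fit gave 5 of the 10, against 11.5% of all features. With trend and robust settings added, 0 of the 10 and 2.38% of all features had an adjusted p under 0.05, with 0.0651 for Scnn1g and 0.0799 for Foxi1, and 6 of the 10 and 13.3% of all features an unadjusted p under 0.05.

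In the inducible line the question was the same at 48 hours after tamoxifen, with 1 array per group and so no test. In the CreER pair, 7 of the 10 genes read higher and 3 lower, with a median of 0.11 against -0.01 over all features. Of all features, 47.3% read higher in that pair. None of the 10 reached a 2-fold difference, against 3.61% of the 25925 features measured in that pair. The largest were Aqp2 at 0.40, Foxi1 at -0.33 and Scnn1a at 0.29. The CreER difference was smaller in size than the Six2Cre difference for 8 of the 10, Aqp2 and Scnn1a being the others. The share of all features for which this held was not computed.

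The 3 pairs can be joined. For 3 of the 10 genes the knockout was higher in all 3 pairs, against 19.5% of all features, and for 1 of the 10, Foxi1, it was lower in all 3, against 14.8%. Over both lines, with line and slide as covariates, the difference is the mean of the 3 pairs. It was -1.17 (SE 0.34) for Foxi1, 0.53 (SE 0.19) for Scnn1b, 0.50 (SE 0.20) for Scnn1g and 0.50 (SE 0.16) for Calb1. None of the 10 passed after adjustment in limma, with adjusted p of 0.461, 0.520, 0.538 and 0.471 for these genes, and 0% of all features passed. At an unadjusted p under 0.05 there were 2 of the 10 (Foxi1 and Calb1), against 9.62% of all features. All 3 knockout arrays lay above all 3 controls for 3 of the 10 (Scnn1b, Scnn1g and Calb1), against 6.57% of all features. For none of the 10 did all 3 knockouts lie below all 3 controls, against 4.52%; Foxi1 in the CreER knockout read higher than in Six2Cre control 5. These values come from the same arrays as the Six2Cre comparison and are no separate evidence.

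The other genes of the pathways gave the setting of these values, in 4 lists that, like the 10 genes, were chosen with earlier results known. No gene of these 4 lists passed in limma in the Six2Cre comparison or over both lines. At an unadjusted p under 0.05 in the Six2Cre comparison there were 5 of the principal cell list, 3 of the intercalated cell list, 4 of the ureteric trunk list and 4 of the ureteric tip list, against the 6.33% of all features given above. Of 19 other principal cell and connecting tubule genes measured, 10 read higher and 9 lower in the Six2Cre knockouts, with a median of 0.0033. Fxyd4, a modulator of the sodium pump in principal cells, differed by 0.94 (SE 0.32) with pairs of 1.22 and 0.65. Klk1, a tissue kallikrein of the connecting tubule, differed by -1.22 (SE 0.33) with pairs of -1.28 and -1.17. Ptger3, a prostaglandin E2 receptor, differed by 2.35 (SE 0.27, adjusted p 0.118 in limma), from -2.55 and -2.87 in the controls to -0.27 and -0.45 in the knockouts. Kcnj1, the ROMK potassium channel of principal cells and of the thick ascending limb, differed by -5.12 (SE 0.33, adjusted p 0.0873 in limma), from -1.92 and -1.65 to -6.58 and -7.23. The 5 distal nephron markers measured, which include the thick ascending limb gene Umod, read lower in all 5 cases with a median of -3.16. Their part in the Kcnj1 value was not tested. In the CreER pair the differences were 0.26 for Fxyd4, 0.17 for Klk1, -0.21 for Ptger3 and -0.98 for Kcnj1. Klk1 was not well above background on the CreER knockout, so its value there is near the floor.

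Of 24 ureteric trunk genes, 18 read higher and 6 lower in the Six2Cre knockouts, with a median of 0.11, and the slide 1 pair (median 0.30) differed from the slide 2 pair (median -0.04) as it did for the 10 genes. Krt19, a keratin of the duct and ureter epithelium, differed by 1.08 (SE 0.32), or by 1.55, 0.62 and 0.43 in the 3 pairs. Ehf, an ETS factor of epithelia, differed by 0.72 (SE 0.25), and Emx1, a homeobox gene, by -0.93 (SE 0.39). Their CreER pair differences were -0.15 for Ehf and 0.00084 for Emx1. Lcn2, which encodes neutrophil gelatinase-associated lipocalin, was well above background on all 3 controls and on no knockout. It was at least 1.96-fold lower in the Six2Cre knockouts, taking the dimmest signal well above background on each knockout array as the bound. In the CreER pair the same bound was 0.67-fold and so shows no drop. Of 14 ureteric tip genes, 12 read lower and 2 higher in the Six2Cre knockouts, with a median of -0.53. Sox8 differed by -1.70 (SE 0.27), Lhx1 by -1.60 (SE 0.49), Etv4 by -1.20 (SE 0.51) and Adamts18 by 1.26 (SE 0.55). Their CreER pair differences were -1.66 for Sox8, -0.15 for Lhx1, -0.05 for Etv4 and 1.37 for Adamts18. Several tip genes, Lhx1 among them, are also made by early nephrons.

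The summed signal of the trunk list was 77.2 and 87.5 times the 75th percentile in the Six2Cre controls and 109.8 and 95.8 in the Six2Cre knockouts. It was 95.4 in the CreER control and 97.7 in the CreER knockout. Such a sum, here and below, is led by the brightest probes of a list and does not measure the amount of a tissue. The median Six2Cre difference of the 24 trunk genes was 0.11. The lowest and the highest sum were thus both on slide 1, whose pair had the larger absolute difference for 8 of the 10 genes. Any link between the sums and those differences was not tested. Markers of the urothelium, the lining of the ureter, read higher in the Six2Cre knockouts for 6 of 6 genes, with medians of 1.26 on slide 1 and 0.22 on slide 2. Their summed signal was 1.73 on Six2Cre knockout 7 and 0.45 to 0.87 on the other 5 arrays. Stromal markers read higher for 5 of 5 with a median of 0.59 and nephron progenitor markers lower for 10 of 10 with a median of -1.11. The stromal sum was 98.0 and 79.6 in the Six2Cre knockouts and 43.2 to 60.2 on the other 4 arrays. Of 5 lymphocyte markers 4 read higher (median 0.09), and of 6 sympathoadrenal markers 3 did (median -0.13). Lymphocytes and sympathoadrenal cells were listed because they also express Gata3. The part of the cells of any of these lists in the values of Scnn1b, Scnn1g, Calb1, Elf5 and Gata3 was not tested.

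**Figure D4:**
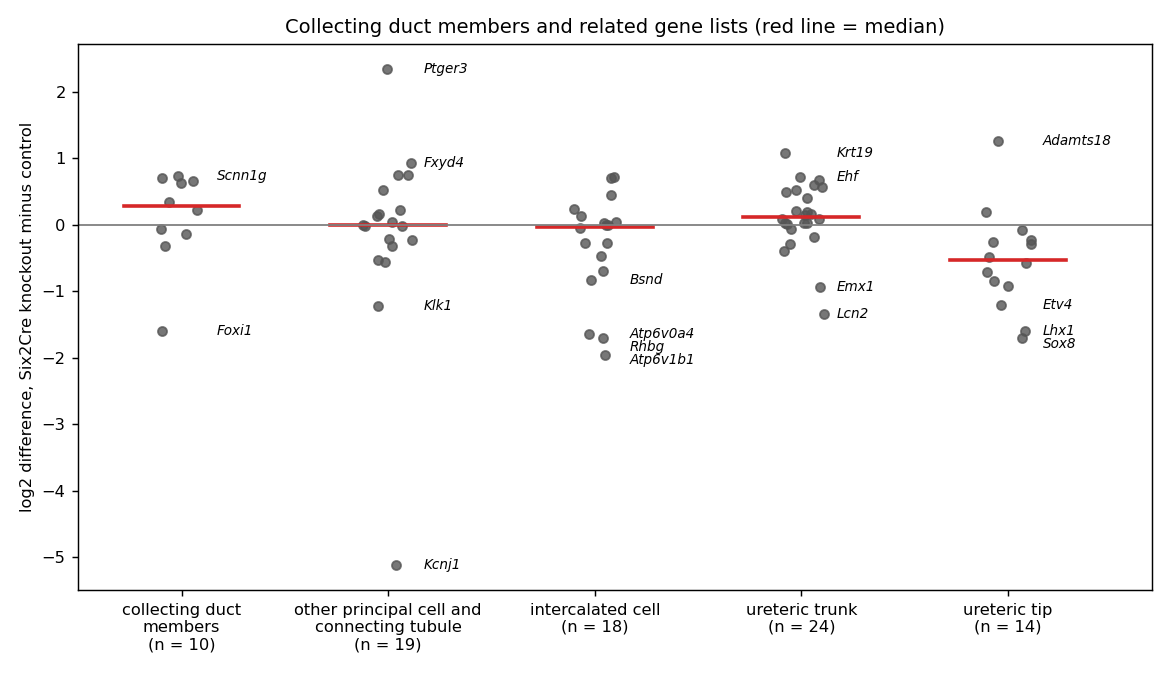
Six2Cre knockout minus control in log2 units (vertical axis) for the 10 genes and the genes of 4 lists, one point per gene, with a red line at the median. The medians are 0.28 for the 10 genes, 0.0033 for other principal cell genes, -0.02 for intercalated cell genes, 0.11 for trunk genes and -0.53 for tip genes; the named genes are labelled, and Lcn2 was not well above background in the knockouts.

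Of 18 intercalated cell genes measured, 8 read higher and 10 lower in the Six2Cre knockouts, with a median of -0.02. The 4 genes named from this list were picked for the size of their difference, and all read lower in the Six2Cre knockouts. They do not stand for the list, where 8 of 18 read higher. An anion transporter gene among those 8 differed by 0.70, with pairs of 0.84 and 0.56. Atp6v1b1, the B1 subunit of the proton pump, differed by -1.96 (SE 0.46, adjusted p 0.410 in limma). Atp6v0a4, the a4 subunit of that pump, differed by -1.64 (SE 0.39, adjusted p 0.425 in limma). Rhbg, an ammonia transporter, differed by -1.70 (SE 0.42, adjusted p 0.466 in limma), and Bsnd, the barttin subunit of chloride channels, by -0.83 (SE 0.34).

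Centred on its own mean over the 6 arrays, Foxi1 read -0.20 in Six2Cre control 5, 1.23 in Six2Cre control 2, -1.41 in Six2Cre knockout 7, -0.74 in Six2Cre knockout 9, 0.72 in the CreER control and 0.39 in the CreER knockout. On the same scale Atp6v1b1 read 0.10, 1.26, -1.44, -1.13, 0.78 and 0.42. Both were highest in Six2Cre control 2 and lowest in Six2Cre knockout 7. The root mean square distance to Foxi1 over the 6 arrays ran from 0.20 for Atp6v1b1 to 1.29 for Hmx2 among the 18 intercalated cell genes, with a median of 0.89 log2 units. Atp6v1b1, Atp6v0a4 and Rhbg were named for their low Six2Cre values, so that their nearness to Foxi1 follows in part from the choice. Among 15233 genes the 3 nearest were Tcap and Des, which encode the muscle proteins telethonin and desmin, and Nr1i2, a nuclear receptor, at 0.14, 0.16 and 0.16. This likeness rests on 6 arrays, and Nr1i2 was well above background on only 4 of them.

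Skeletal muscle genes stood high on Six2Cre control 2, where their summed signal was 34.6 times the 75th percentile against 0.80 to 2.55 on the other 5 arrays. On the centred scale the mean of the 8 muscle genes read 3.77 on that array, the array on which Foxi1 was also highest. The CreER control had the lowest muscle mean at -1.37 and the next highest Foxi1 at 0.72. The CreER knockout had the next highest muscle mean at 0.11, with Foxi1 at 0.39. Any link between the muscle genes and Foxi1 was not tested. Without Six2Cre control 2 the difference was -0.88 for Foxi1, -1.39 for Atp6v1b1, -1.36 for Atp6v0a4 and -1.18 for Rhbg. The CreER pair gave -0.37 for Atp6v1b1, -0.11 for Atp6v0a4 and -0.07 for Rhbg.

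**Figure D5:**
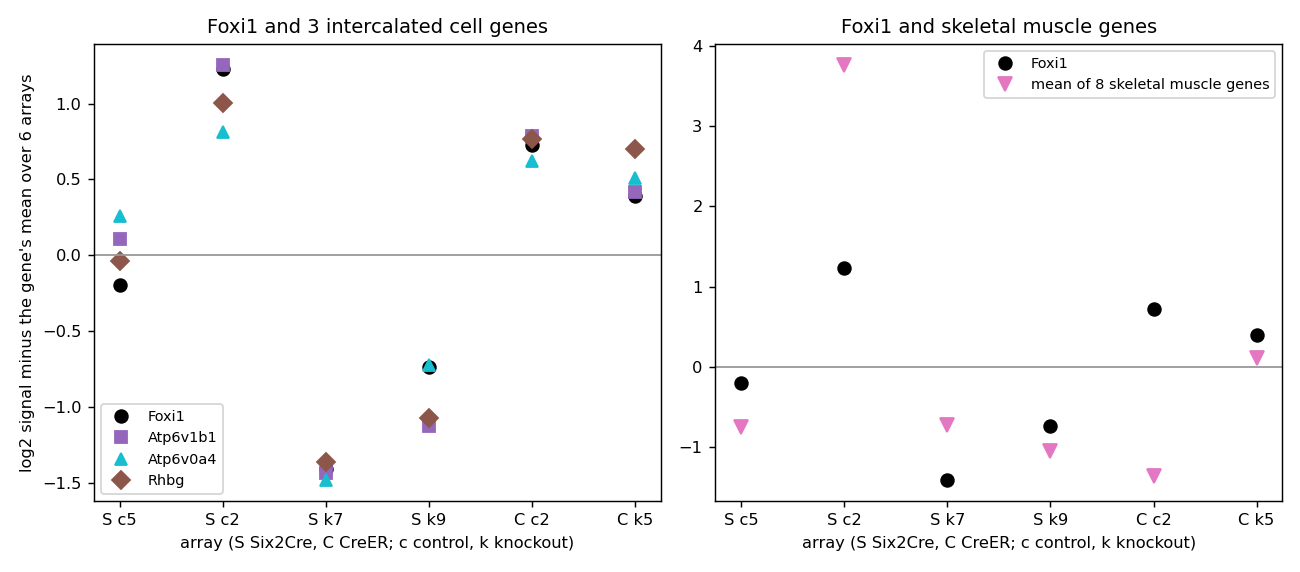
Log2 signal centred on each gene's mean over the 6 arrays (vertical axis) by array, for Foxi1, Atp6v1b1, Atp6v0a4 and Rhbg on the left and for Foxi1 and the mean of 8 skeletal muscle genes on the right, with S for Six2Cre, C for CreER, c for control and k for knockout. The 4 genes lie lowest on the 2 Six2Cre knockouts; the muscle mean stands apart on Six2Cre control 2 at 3.77.

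The other members of widest range over the 6 arrays after Foxi1 were Scnn1b and Calb1, and their nearest genes were of varied kinds. For Scnn1b they were Gng8, a G protein gamma subunit, Paqr6, a progestin receptor family member, and Abca17, a transporter, at distances of 0.06, 0.06 and 0.07 log2 units. Abca17 was well above background on only 4 of the 6 arrays. For Calb1 they were Mgst3, a microsomal glutathione transferase, Tdpoz1, a BTB domain gene, and S100a11, a calcium-binding protein, at 0.05, 0.06 and 0.06.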

How the data were processed

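Per the file headers, the authors used Feature Extraction 10.5.1.1, whose processed signal is a linear, background-subtracted intensity that was not scaled between the deposited arrays. The series table the authors deposited holds the same intensity. Spots with outlier marks were left out, spots of a probe were averaged, and the value analysed was log2 of the deposited intensity minus the array's 75th percentile. Of 41174 non-control probes, 40987 were usable on all arrays, and 24999 took names of 17235 genes by RefSeq accession. A gene was its probe of highest mean signal, kept if 2 or more of the 6 arrays showed it well above background. No array positions are given, because the builds of design and annotation differ.

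limma 3.58.1 in R 4.3.3 fitted 4 groups (2 residual degrees of freedom, all from Six2Cre arrays), and separately the genotype with line and slide as covariates, two-sided, with Benjamini-Hochberg adjustment over all features at 0.05. It was run on simulated data without slide effects, which checked the median of the recovered differences and not the calls in these data. The CreER pair alone had no test. The number of arrays limits the precision. The 10 genes and the lists were chosen with earlier results of these data known. Beyond the 10, the text names Sall1, up to 4 genes per list of largest Six2Cre difference with the same sign on both slides, and the 3 genes nearest to each of the 3 genes of widest range; the lists of other cells are given as counts, medians and summed signals, with no gene named but Umod, as background. Alternatives were slide as a block, normexp background (offset 50), quantile and median scaling, other filters on dim probes, eBayes with trend and robust settings, the deposited series table, the mean of all probes and leaving out each Six2Cre array. The normexp alternative used median spot signal, since the mean spot signal planned for it was not in the columns used here. Figures were drawn with matplotlib 3.10.9.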

Additional observations from a re-analysis of the deposited data

How the results depend on the processing

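None of the 10 genes passed an adjusted p of 0.05 under any alternative, in any of the 3 limma comparisons. Values computed for the 10 genes under alternatives mostly kept their direction and their side of the threshold. The counts were 126 of 130 in the Six2Cre comparison, 68 of 70 over both lines and 68 of 70 between the lines. In the untested CreER pair the count was 44 of 50, where a value had to move by less than a spread between arrays. That spread is not the pair's own, which has 1 array per group. These counts say little about robustness, because many values could not move. Slide as a block, trend and robust settings, the filters on dim probes and the mean of all probes left each difference at its main value by design. As no gene passed anywhere, the side of the threshold never changed. Sizes could still move. In the Six2Cre comparison Foxi1 went from -1.59 to -0.68 with normexp, whose offset of 50 shrinks differences of dim probes. Gata3 ran from -0.63 to -0.0048 and Aqp3 from 0.11 to 0.57 when single arrays were left out. Of the values that turned sign, leaving out single arrays in the Six2Cre comparison gave Aqp2 values from -0.25 to 0.12 (above 0 without control 5 or knockout 9) and Avpr2 values from -0.14 to 0.59 (below 0 without control 5 or knockout 7). Over both lines Avpr2 ran from -0.31 to 0.32, and between the lines Aqp3 ran from -0.33 to 0.14, each turning without control 5 or knockout 7. Over both lines these omissions are a single result. With slide as a covariate, leaving out either slide 1 array removes the slide 1 pair. In the CreER pair Gata3 was -0.032 with normexp, and Elf5 was 0.0055 with quantile scaling, 0.023 with median scaling and 0.0056 from the deposited series table; the cause was not tested. The Foxi1 difference ranged from -2.30 to -0.88 when single arrays were left out, and the median of the 10 genes from 0.07 (without knockout 7) to 0.56 (without knockout 9).

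Counts over all features moved more. In the Six2Cre comparison 0 features were called by limma, but 27 higher and 86 lower with median scaling, and 304 higher and 323 lower with slide as a block and trend and robust settings. Over both lines 0 became 13 higher and 16 lower with normexp, and 6 higher and 6 lower with trend and robust settings. The features at least 2-fold apart in the CreER pair were 936, and 157 with normexp. Its offset shrinks differences of dim probes, and how much of the fall this makes up was not tested. Without Six2Cre control 2, an alternative chosen after seeing the data, 6 intercalated cell genes read higher and 12 lower (median -0.08), 11 principal cell genes higher and 8 lower (median 0.18), and 16 trunk genes higher and 8 lower (median 0.08). By replicate number, no paired analysis was possible because the Six2Cre control and knockout arrays share no number and the CreER line has 1 array per group; the pairs in the report are arrays of 1 line that shared a slide. With 1 or 2 arrays per group the fits resolve only large differences.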
